A study of Mus musculus with 4 samples.

Results

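The genes described here are 8 genes known for venous endothelium and for the capture of leukocytes from blood: Nr2f2, Ackr1, Selp, Sele, Lrg1, Vwf, Vcam1 and Icam1. They were chosen by name, and all 8 were found among the 31017 gene symbols of the count matrices. They were read in 4 droplet-based single-cell RNA libraries of vessel progenitor cells sorted from C57BL/6 mice, 1 library for each of lung P1, lung P2, fat P1 and fat P2. The P1 gate took CD31+ PDGFRa- cells with high CD105 and low Sca1, and the P2 gate CD31- PDGFRa+ cells with low CD105 and high Sca1. All 4 populations were also gated as negative for CD45 and Ter119 and positive for Tie2, so CD45-positive leukocytes and Ter119-positive erythroid cells were gated out of each. Age, sex and number of animals are not given in the sources used here. There were no replicates, so every difference below describes single libraries and has no test.

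Veins and venules differ from arteries and capillaries in that they are the usual site where leukocytes leave the blood. The selectins Selp and Sele slow a passing leukocyte, the chemokine-binding receptor Ackr1 carries chemokines across the venular wall, and Icam1 and Vcam1 then hold the leukocyte through its integrins. Nr2f2 (COUP-TFII) is the transcription factor that maintains venous identity, and it is also widely present in mesenchyme. Von Willebrand factor, encoded by Vwf, builds the Weibel-Palade bodies in which P-selectin is stored, and Lrg1 encodes a secreted glycoprotein that modulates TGF-beta signalling in endothelium.

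Barcodes with at least 1000 UMIs (unique molecular identifiers, each standing for 1 captured transcript), at least 500 genes and at most 10% mitochondrial UMIs were kept. They numbered 652 in the labelled lung P1 library, 1436 in lung P2, 1948 in the labelled fat P1 library and 7898 in fat P2, with 1118642, 3880015, 6510236 and 43599072 UMIs in the same order. No more than 1 kept barcode was shared between any pair of libraries. Of the gate genes, the endothelial gene Pecam1 (CD31) stood at 1223 CPM (UMIs of a gene per 1e6 UMIs of the library) in the labelled lung P1 library, 88.1 in lung P2, 1757 in the labelled fat P1 library and 2.39 in fat P2, and Pdgfra at 14.3, 1752, 9.22 and 447 CPM, both in the direction of the gates. Ly6a, a gene of the Sca1 antigen, went against its gate as labelled, with 1750.3 CPM in the labelled lung P1 library, 205 in lung P2, 2423 in the labelled fat P1 library and 1921 in fat P2. Tissue markers went against the labels of both P1 libraries. The adipose vessel gene Fabp4 stood at 12379 CPM in the labelled lung P1 library and 94.2 CPM in the labelled fat P1 library, while the lung transcription factor gene Foxf1 stood at 3.58 and 716 CPM. Tissue names of the P1 libraries below are therefore labels only, and exchanging the P1 libraries is given where it changes a result. Exchanged, Ly6a would go with its gate in fat (1750.3 against 1921 CPM) and still against it in lung (2423 against 205 CPM). Barcodes of the labelled lung P1 library also differed from each other hardly more than chance draws from the summed library would (median variance 1.01 times the binomial expectation), and 48.8% of them held 2 or more UMIs of both the endothelial and the fibroblast marker list after thinning to 1000 UMIs, against 0.836% in lung P2, 0.359% in the labelled fat P1 library and 0.468% in fat P2. They are not shown to be single cells, and that library is described by its sums.

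Positions below are from GENCODE vM21 on GRCm38 (mm10), and all 8 genes are annotated as protein coding. Nr2f2 (ENSMUSG00000030551) lies on the minus strand at chr7:70351944-70366735, and Ackr1 (ENSMUSG00000037872) on the minus strand at chr1:173331886-173333750. These selectin genes lie near each other on the plus strand of chromosome 1, with Sele (ENSMUSG00000026582) at chr1:164048234-164057677 and Selp (ENSMUSG00000026580) at chr1:164115264-164150026. They lie 57.6 kb apart. Lrg1 (ENSMUSG00000037095) lies at chr17:56119678-56122001 on the minus strand, Vwf (ENSMUSG00000001930) at chr6:125546774-125686679 on the plus strand, Vcam1 (ENSMUSG00000027962) at chr3:116109949-116129688 on the minus strand and Icam1 (ENSMUSG00000037405) at chr9:21015985-21028817 on the plus strand. Ackr1 overlaps another gene on its own strand, the adhesion molecule gene Cadm3 (chr1:173333258-173367695), over 493 bases, and this bears on its counts below. Nr2f2, Selp, Vcam1 and Icam1 overlap annotated transcripts on the opposite strand, of which those measured stood under 1 CPM in each library.

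Promoter sequences from RefSeq (GRCm38.p6) were found for 6 of the 8 genes. The 250 bases before the start of 4 of them are shown, those of Nr2f2 and Icam1 because both were counted in P2 stroma, and those of Sele and Selp because Selp was counted in the labelled lung P1 library while the nearby Sele had no UMI there. Capitals mark a match to the AP-1 motif TGANTCA, searched on both strands. The windows are chr7:70366747-70366996 (Nr2f2, minus strand), chr9:21015690-21015939 (Icam1, plus strand), chr1:164047984-164048233 (Sele, plus strand) and chr1:164115014-164115263 (Selp, plus strand), each read 5′ to 3′ on the strand of its gene.
Nr2f2: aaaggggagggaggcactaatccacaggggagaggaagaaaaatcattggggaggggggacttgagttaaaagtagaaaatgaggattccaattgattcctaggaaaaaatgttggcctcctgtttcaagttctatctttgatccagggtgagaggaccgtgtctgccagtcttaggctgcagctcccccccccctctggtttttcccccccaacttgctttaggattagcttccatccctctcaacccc
Icam1: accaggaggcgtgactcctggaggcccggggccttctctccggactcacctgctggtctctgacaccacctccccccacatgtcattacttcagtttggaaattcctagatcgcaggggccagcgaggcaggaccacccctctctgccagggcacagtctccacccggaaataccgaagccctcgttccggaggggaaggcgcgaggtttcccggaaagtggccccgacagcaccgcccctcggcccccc
Sele: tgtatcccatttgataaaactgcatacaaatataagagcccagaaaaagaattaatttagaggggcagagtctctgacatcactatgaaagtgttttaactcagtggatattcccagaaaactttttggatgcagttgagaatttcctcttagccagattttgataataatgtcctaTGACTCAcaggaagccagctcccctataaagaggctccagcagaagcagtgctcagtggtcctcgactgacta
Selp: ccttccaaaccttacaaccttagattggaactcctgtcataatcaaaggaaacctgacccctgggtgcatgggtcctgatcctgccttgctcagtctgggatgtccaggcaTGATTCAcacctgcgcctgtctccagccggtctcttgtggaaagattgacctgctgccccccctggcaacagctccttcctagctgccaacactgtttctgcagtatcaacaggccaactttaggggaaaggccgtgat
Sele and Selp each held 1 AP-1 match, whose first base lies 73 bases before the Sele start and 139 bases before the Selp start, and Nr2f2 and Icam1 held none. Of 32841 promoters of the same length, 6.75% held the AP-1 motif. The NF-kB consensus, of 10 letters, was found in none of the 6 promoters and in 7.25% of the 32841. A match is a run of letters and shows no binding, and a window without one says nothing of either factor.

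The levels fell into 3 patterns. Vwf, Lrg1 and Selp were highest in a P1 library, Nr2f2 and Vcam1 were highest in lung P2, and Ackr1 was counted in fat P2 and in the labelled lung P1 library while nearly absent from the others. Icam1 was above 50 CPM in all 4 libraries, and Sele was at or near 0 in all 4. CPM from transcript ends are not scaled by transcript length, so levels are compared between libraries and not between genes. Intervals are 95%, from exact Poisson counts for CPM and exact Clopper-Pearson limits for shares, and cover counting error only.

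**Figure D1:**
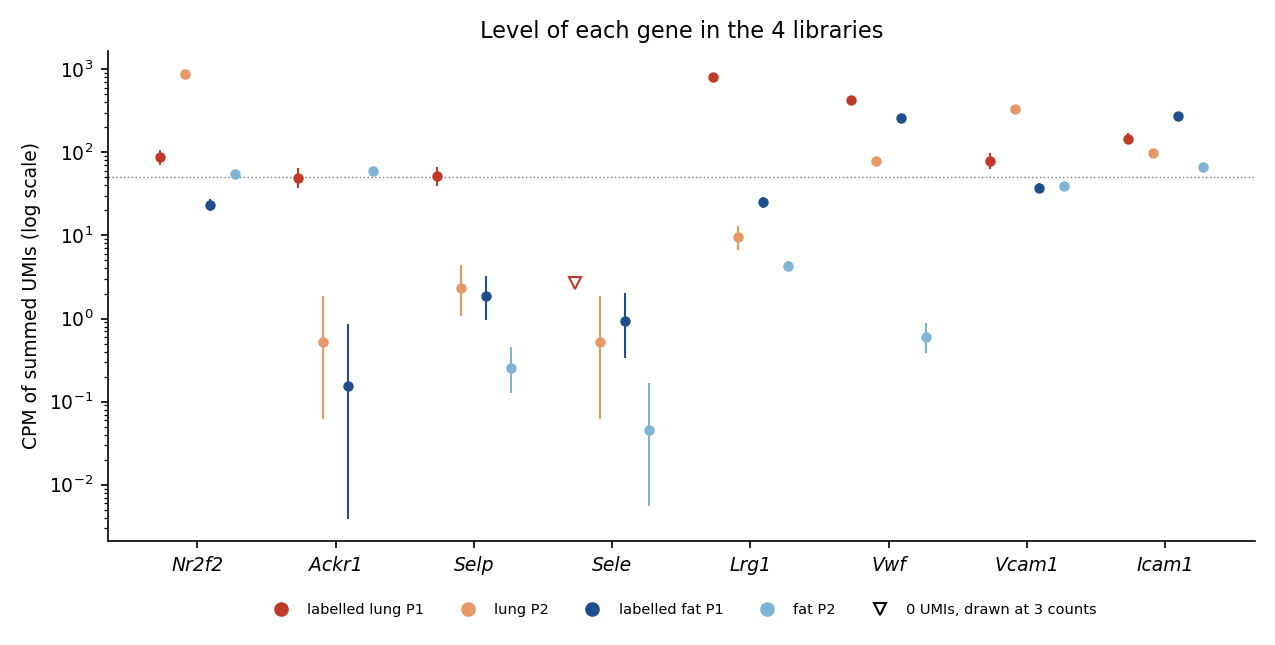
CPM of summed UMIs (log scale) of the 8 genes in the libraries labelled lung P1, lung P2, labelled fat P1 and fat P2, with exact Poisson 95% intervals. The open triangle marks 0 UMIs and is drawn at the level of 3 counts, and the dotted line marks 50 CPM. Nr2f2 and Vcam1 are highest in lung P2, and Lrg1, Vwf and Selp in the labelled lung P1 library.

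Nr2f2 stood at 86.7 CPM (70.3 to 106) in the labelled lung P1 library, 869.6 CPM (840.5 to 899) in lung P2, 23.5 CPM (19.9 to 27.5) in the labelled fat P1 library and 55.2 CPM (53.0 to 57.4) in fat P2. The order was thus lung P2, labelled lung P1, fat P2 and labelled fat P1, and no neighbouring pair had overlapping intervals. Vcam1, the ligand of alpha-4 integrins, stood at 78.7 CPM (63.1 to 96.9) in the labelled lung P1 library, 330.4 CPM (313 to 349) in lung P2, 37.3 CPM (32.8 to 42.3) in the labelled fat P1 library and 39.6 CPM (37.8 to 41.5) in fat P2. Its levels in the last pair had overlapping intervals.

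Ackr1 stood at 49.2 CPM (37.0 to 64.0) in the labelled lung P1 library, from 55 UMIs, and at 59.0 CPM (56.8 to 61.4) in fat P2, from 2574 UMIs. Lung P2 held 2 of its UMIs (0.515 CPM) and the labelled fat P1 library held 1 (0.154 CPM). The levels in the labelled lung P1 library and in fat P2 had overlapping intervals, and the high pair and the low pair of libraries each mixed a P1 with a P2 population. The fat P2 counts cannot be told apart from reads of Cadm3, whose values follow with the fat P2 stroma.

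Selp (P-selectin) stood at 51.8 CPM (39.4 to 67.0) in the labelled lung P1 library, against 2.32 CPM (1.06 to 4.40) in lung P2, and at 1.84 CPM (0.952 to 3.22) in the labelled fat P1 library, against 0.252 CPM (0.126 to 0.451) in fat P2. Sele (E-selectin), which endothelium makes chiefly after cytokine stimulation, had 0 UMIs in the labelled lung P1 library (3 counts there would be 2.68 CPM), 2 in lung P2, 6 in the labelled fat P1 library and 2 in fat P2. Those counts correspond to 0.515, 0.922 and 0.0459 CPM. Between lung P1 and lung P2, and between lung P2 and fat P2, no fold is given because both libraries were at or under 3 counts.

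Lrg1 stood at 805 CPM (753 to 859) in the labelled lung P1 library, 9.54 CPM (6.71 to 13.1) in lung P2, 25.0 CPM (21.3 to 29.2) in the labelled fat P1 library and 4.31 CPM (3.72 to 4.97) in fat P2. Vwf stood at 422 CPM (385 to 462) in the labelled lung P1 library, 79.4 CPM (70.8 to 88.8) in lung P2, 262 CPM (249 to 274) in the labelled fat P1 library and 0.596 CPM (0.390 to 0.874) in fat P2. Both genes kept the P1 library above the P2 library of the same label. Icam1, the ligand of leukocyte beta-2 integrins, stood at 147 CPM (125 to 171) in the labelled lung P1 library, 97.4 CPM (87.8 to 108) in lung P2, 274 CPM (261 to 287) in the labelled fat P1 library and 66.8 CPM (64.4 to 69.3) in fat P2. Its order was labelled fat P1, labelled lung P1, lung P2 and fat P2, and no intervals overlapped.

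Each comparison was read as a log2 ratio after adding 10 CPM to both libraries, and a gene was called at 4-fold or more with at least 50 CPM in 1 of the libraries. The log2 ratios understate the change of genes near 10 CPM, and ratios of CPM are given beside some of them. In fat, P1 over P2 as labelled, 4 of the 8 genes were high enough to call. Vwf was called higher (log2 4.68), with 439 times (298 to 674) its CPM in fat P2, and Ackr1 lower (log2 -2.77), resting on 1 UMI in the labelled fat P1 library. Icam1 missed the call at log2 1.89, though its CPM was 4.10 times (3.86 to 4.35) that of fat P2. Nr2f2 missed it at -0.96. Over all 4727 genes, 12.4% were called higher and 10.1% lower, with a median log2 ratio of 0.38.

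In lung, P1 over P2 as labelled, 6 of the 8 genes were high enough to call. Lrg1 (log2 5.38, 84.4 times the CPM of lung P2, interval 60.7 to 121), Selp (2.33, 22.4 times) and Vwf (2.27, 5.32 times, 4.59 to 6.16) were called higher, and Nr2f2 was called lower (-3.19). Vcam1 missed the call at log2 -1.94, though lung P2 had 4.20 times (3.38 to 5.27) its CPM, and Icam1 was at 0.54. Ackr1, with a log2 ratio of 2.49, was just under the 50 CPM needed. Of all 4791 genes 8.45% were called higher and 11.8% lower, with a median of -0.12. With the P1 libraries exchanged, 0 of the 8 genes were called higher in lung, where Nr2f2 and Vcam1 were called lower, and in fat Selp, Lrg1 and Vwf were called higher and none lower. Over all genes, the exchange gave 432 higher and 500 lower of 4853 in lung, and 427 higher and 405 lower of 4282 in fat.

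Between the P1 libraries, lung over fat as labelled, Lrg1 (log2 4.54) and Selp (2.39) were called higher among 6 genes high enough to call, and none was called lower. Nr2f2 (1.53), Vcam1 (0.91), Vwf (0.67) and Icam1 (-0.86) were not called. Ackr1 (log2 2.54), at 49.2 against 0.154 CPM, was just under the 50 CPM needed. Over 4605 genes, 5.28% were called higher and 5.71% lower, with a median of -0.31. Between the P2 libraries, lung over fat, Nr2f2 (log2 3.75, 15.8 times, 14.95 to 16.6), Vwf (3.08) and Vcam1 (2.78, 8.34 times, 7.75 to 8.97) were called higher and Ackr1 (-2.72) lower, among 5 genes high enough to call. Of all 4323 genes, 8.24% were called higher and 4.79% lower, with a median of 0.15. Of those calls 63.2% were higher, and 48.1% after TMM scaling, with a median of -0.27. The calls of Nr2f2, Vwf, Vcam1 and Ackr1 kept their direction under that scaling. These 4 comparisons share libraries with each other and are not independent.

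The share of barcodes with a gene was compared with the share that the same UMIs would give if spread evenly over barcodes by depth. In the labelled lung P1 library the shares of all 7 genes with UMIs lay close to an even spread: Lrg1 was in 70.9% of barcodes against 72.1% for an even spread, Vwf in 47.7% against 49.9%, and Selp in 8.59% against 8.46%. In the labelled fat P1 library Vwf was in 21.9% of barcodes (20.1 to 23.8) against 54.4%, Icam1 in 37.3% against 55.8%, Vcam1 in 3.08% against 11.525% and Nr2f2 in 3.29% against 7.47%, so their UMIs were concentrated in a minority of barcodes. Vwf was most concentrated in lung P2, where it was in 0.975% of barcodes (0.534 to 1.63) against 18.4%, and 1 barcode held 151 of its 308 UMIs. Nr2f2 in lung P2 was in 79.8% of barcodes against 82.8%, close to an even spread.

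At 1000 UMIs per barcode, the share with Nr2f2 was 8.74% in the labelled lung P1 library, 56.3% (53.7 to 58.9) in lung P2, 1.33% in the labelled fat P1 library and 5.23% in fat P2. Vwf was in 33.6%, 0.418%, 12.7% and 0.038%, Lrg1 in 54.9%, 0.279%, 1.69% and 0.342%, and Icam1 in 14.9%, 7.94%, 17.0% and 4.95% of barcodes in the same order. Ackr1 was in 5.37% in the labelled lung P1 library, in 0 of 1436 barcodes of lung P2 (which, at the limit of 3 counts, allows up to 0.209%), in 1 of 1948 of the labelled fat P1 library and in 5.70% in fat P2. Thinning left out no barcode.

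**Figure D2:**
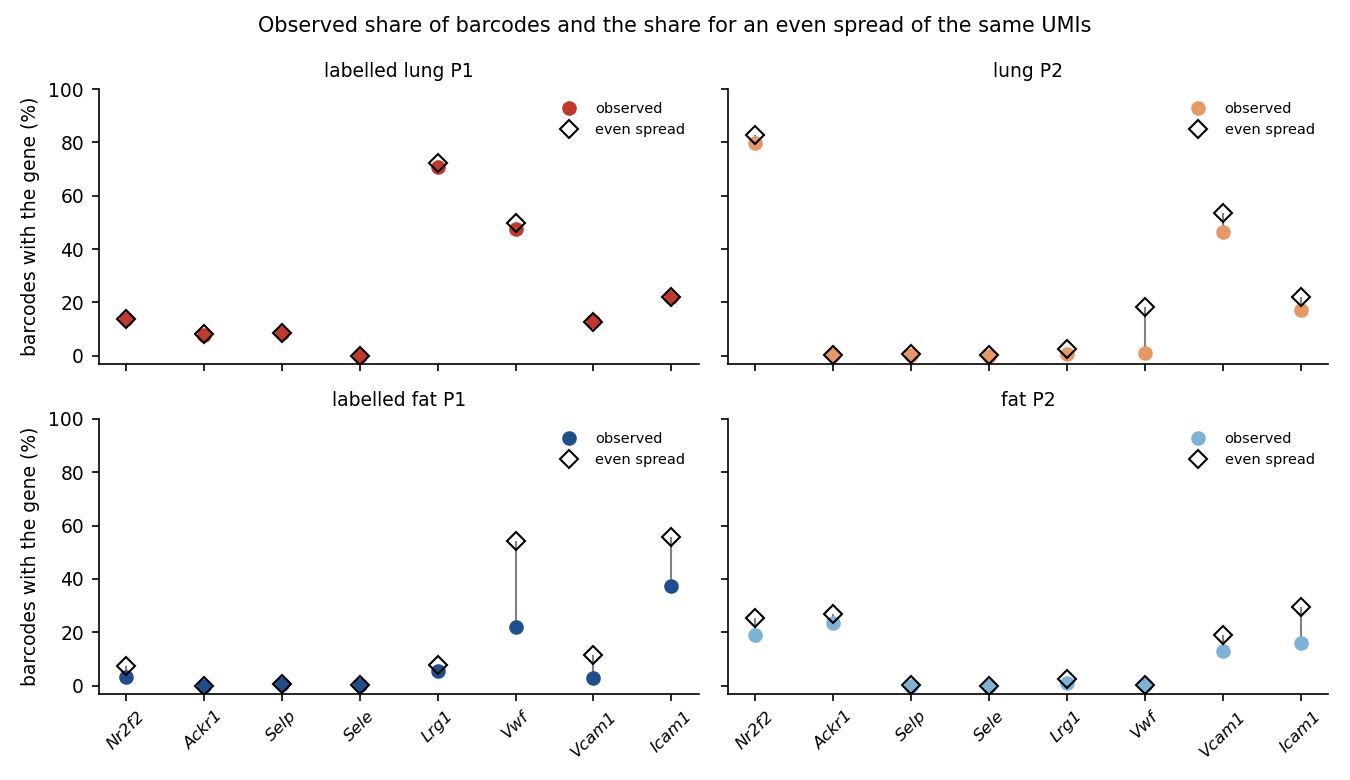
Percent of barcodes with each gene (filled points) and the percent for an even spread of the same UMIs (open diamonds), in 1 panel per library. Points and diamonds coincide in the labelled lung P1 library, while Vwf and Icam1 in the labelled fat P1 library and Vwf in lung P2 lie well under their diamonds.

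Clusters were made within each library without these genes, so that their values by cluster did not shape the clusters. In lung P2, genes of the endothelial programme came from very few barcodes. A cluster of 26 endothelial-like barcodes, 5.49% of the UMIs of the library, held 99.0% of the Vwf UMIs (1433 CPM, 1276 to 1603), all 9 Selp UMIs, both Sele UMIs and 64.9% of the Lrg1 UMIs. Vwf stood at 0.891 CPM (0.184 to 2.60) in the 1307 fibroblast-like barcodes. Ackr1 had 0 UMIs in the endothelial-like cluster. Without that cluster, Vwf in lung P2 stood at 0.818 CPM and its log2 ratio over fat P2 at 0.03. Its call in that comparison thus rested on that cluster, where 42.3% of the 26 barcodes carried Vwf. Among these, 1 barcode held 151 of the 308 Vwf UMIs of lung P2, a spread that the counting interval does not cover.

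Nr2f2 and Vcam1 in lung P2 were found in stroma. Nr2f2 stood at 937 CPM (905 to 970) in fibroblast-like barcodes and 1028 CPM (876 to 1200) in the 75 mural-like barcodes, against 197 CPM (142 to 267) in the endothelial-like and 61.3 CPM (24.7 to 126) in the 20 epithelial-like ones. At 1000 UMIs it was in 57.3%, 69.3%, 15.4% and 5.0% of these barcodes. Vcam1 stood at 361 CPM (341 to 382) in fibroblast-like barcodes, 95.8 CPM (53.6 to 158) in mural-like, 221 CPM (162 to 294) in endothelial-like and 8.76 CPM in epithelial-like ones. The epithelial-like barcodes were deeper (median 5605 against 2164 UMIs in fibroblast-like barcodes), so their levels may understate free RNA in shallower barcodes. An unnamed cluster of 8 barcodes led by immune genes that include Igkc and Cd79a had Nr2f2 at 277 CPM (120 to 546). Vcam1 stood at 138 CPM (37.7 to 355) there. Nr2f2 in endothelial-like and Vcam1 in mural-like barcodes lay under these levels, and above those of the epithelial-like barcodes. The stromal gene Dcn, at 3462 CPM in the immune cluster, was in 12.5% of its barcodes. Whether either level is background cannot be settled from these 8 barcodes.

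Within the lung P2 fibroblast-like clusters, Nr2f2 ranged between 180 CPM in a cluster of 20 barcodes led by Hhip and 1186 CPM in the largest, of 292 barcodes, led by genes that include Wnt2 and Tcf21. A cluster of 88 barcodes led by Scara5, Dcn and Pi16 had 384 CPM. Vcam1 was lowest in the Hhip cluster too (16.4 CPM) and highest at 498 CPM in a cluster of 170 barcodes led by Sema3d, Gdf10 and Mmp3. At 1000 UMIs, Vcam1 was carried by 29.5% (26.3 to 32.9) of the fibroblast-like barcodes with Nr2f2 and 27.2% (23.6 to 31.1) of those without. Icam1 was highest in the epithelial-like cluster of lung P2 (534 CPM, 409 to 686), against 81.7 CPM in fibroblast-like barcodes.

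**Figure D3:**
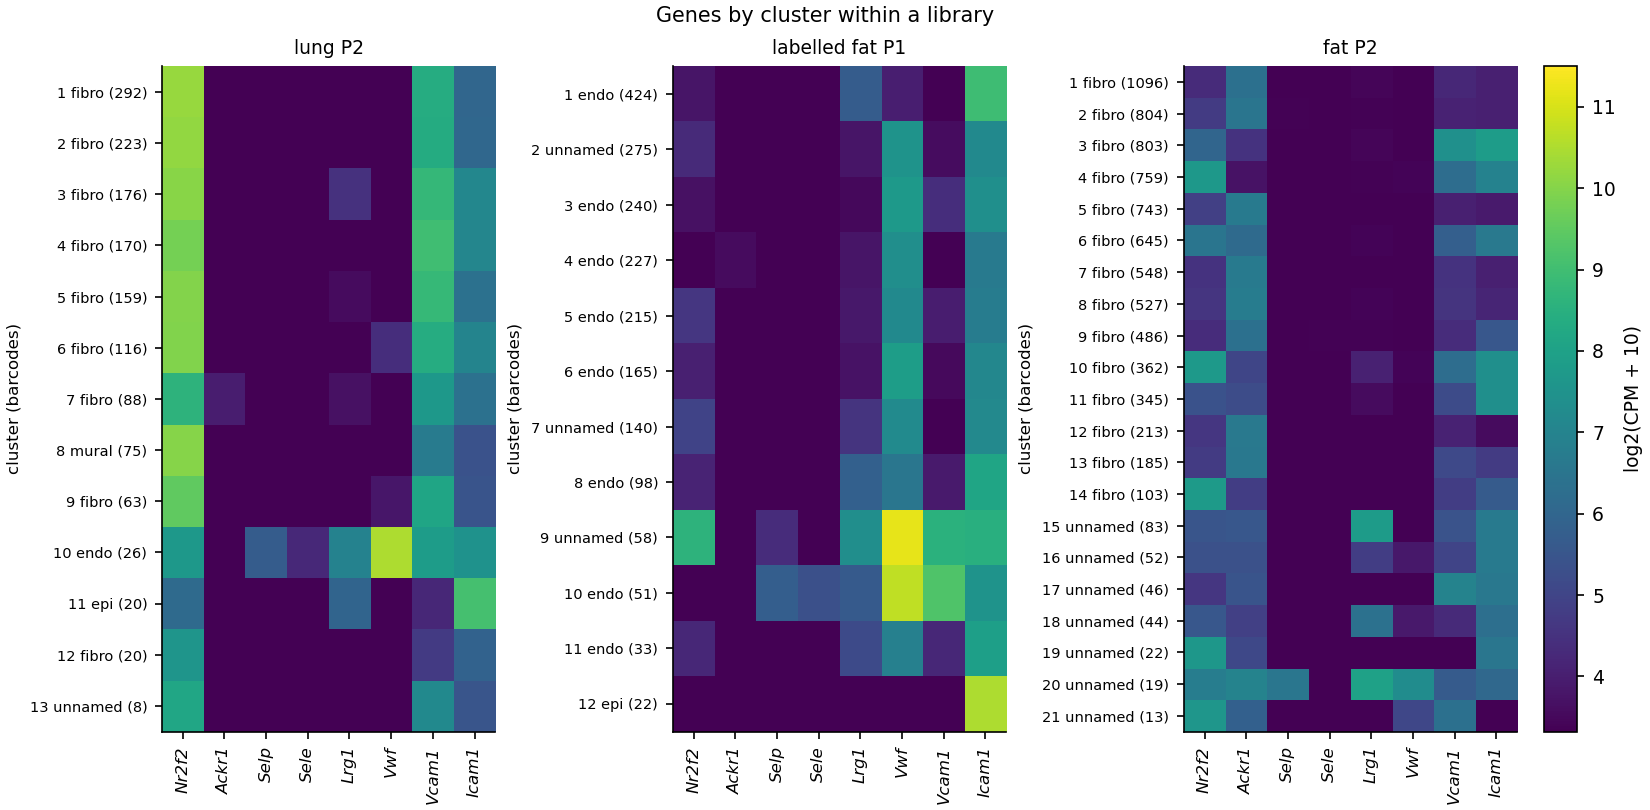
Log2(CPM + 10) of the 8 genes (columns) in each cluster (rows, with its name where it has one and its number of barcodes) of lung P2, the labelled fat P1 library and fat P2. Vwf is bright in 1 cluster of lung P2 and in clusters 9 and 10 of the labelled fat P1 library, Nr2f2 is bright across the lung P2 stroma, and Ackr1 is visible only in fat P2 among these 3 libraries, apart from faint values in 1 cluster each of the others.

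In the labelled fat P1 library, 2 small clusters carried most UMIs of Nr2f2, Vwf, Vcam1, Selp and Sele. Cluster 10, with 51 endothelial-like barcodes led by genes that include Fabp4 and the arterial gap junction gene Gja5 (489.8 CPM), had Vwf at 1677 CPM, Vcam1 at 599 CPM, Selp at 44.5 CPM and Sele at 29.7 CPM, and no Nr2f2 UMI. Cluster 9, of 58 barcodes and unnamed, had Vwf at 2335 CPM, Nr2f2 at 382 CPM, Vcam1 at 361 CPM and Lrg1 at 156 CPM. Without both clusters Vcam1 stood at 2.99 CPM, Nr2f2 at 7.14 CPM and Vwf at 115 CPM, Selp and Sele had 0 UMIs, and Icam1 stayed at 274 CPM. At resolution 0.5 cluster 9 was not found apart. A cluster of 76 barcodes with Ager and Inmt among its leading genes then had Vwf at 1483 CPM and Nr2f2 at 246 CPM.

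Among the 58 barcodes of cluster 9, 19 carried a UMI of the mural gene Acta2, of the lung fibroblast gene Inmt or of Pdgfra, and in these Nr2f2 stood at 620 CPM and Vwf at 29.1 CPM. These 19 held endothelial RNA too, with Cdh5 at 698 CPM in 57.9% of them and Pecam1 at 659 CPM in 36.8%. The other 39 all carried both Vwf and Pecam1, with Vwf at 3622 CPM, Nr2f2 at 249 CPM, Lrg1 at 243 CPM and Vcam1 at 460 CPM, and 89.7% of them carried Slc6a2, the noradrenaline transporter gene known from lung venous endothelium. This split was chosen after the values were seen.

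Barcodes of the labelled fat P1 library were also grouped by genes outside the 8, again chosen after the values were seen: Slc6a2, Gja5 and the capillary gene Car4. Of these groups, the 52 barcodes with Slc6a2 and without Gja5 had the highest Nr2f2 (212 CPM, 157 to 279), Lrg1 (195 CPM, 142 to 260) and Vwf (2969 CPM, 2754 to 3198). The 72 barcodes with Gja5 and without Slc6a2 had Nr2f2 at 42.8 CPM (22.1 to 74.8), no Lrg1 UMI and Vwf at 1357 CPM (1224 to 1500). Vcam1 had overlapping intervals in both, at 343 CPM (272 to 426) with Slc6a2 and 407 CPM (336 to 489) with Gja5. The 492 barcodes with at least 3 Car4 UMIs and neither other gene had Vwf at 15.4 CPM (10.5 to 21.8), Nr2f2 at 2.89 CPM and Vcam1 at 0.482 CPM.

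**Figure D4:**
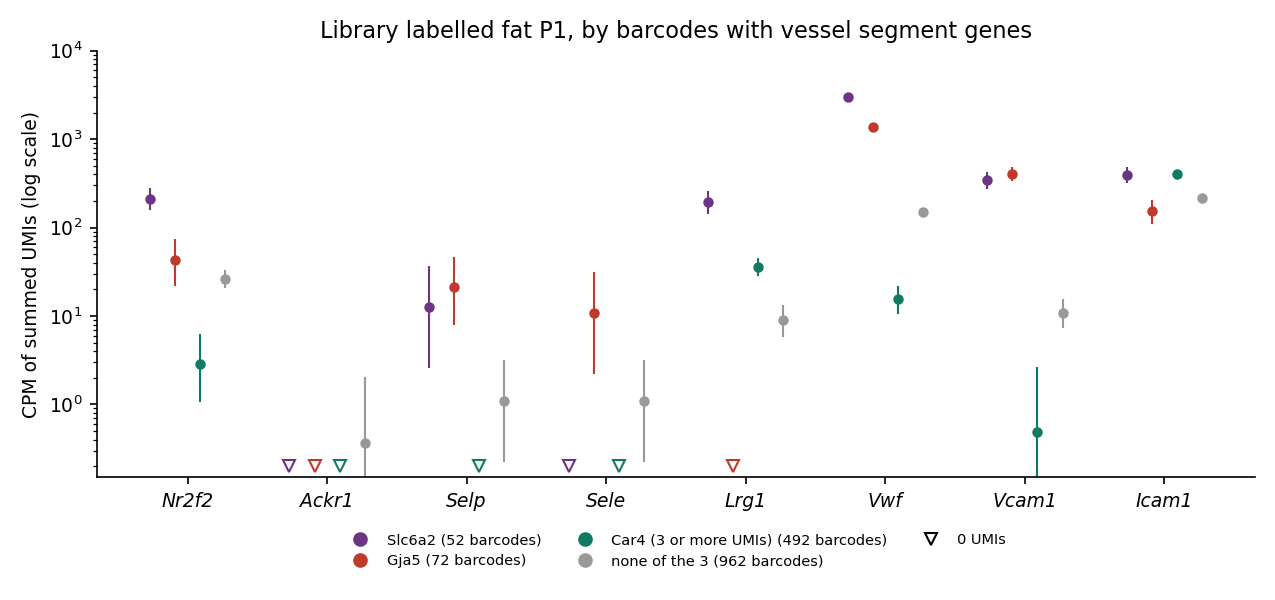
CPM of summed UMIs (log scale) of the 8 genes in barcodes of the labelled fat P1 library that carry Slc6a2, Gja5, at least 3 UMIs of Car4 or none of the 3, with exact Poisson 95% intervals. Open triangles at the foot mark 0 UMIs. Vwf is high with Slc6a2 and with Gja5, Nr2f2 and Lrg1 are highest with Slc6a2, and Icam1 is as high with Car4 as with Slc6a2.

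Icam1 followed another pattern in the labelled fat P1 library. It stood at 409 CPM (382 to 437.5) in the Car4 barcodes, 398 CPM (321 to 487) in the Slc6a2 barcodes and 154 CPM (111 to 207) in the Gja5 barcodes. The largest endothelial-like cluster, of 424 barcodes with the aerocyte genes Fibin, Ednrb and Car4 among its leading genes, had Icam1 at 486 CPM in 71.7% of barcodes and Vwf at 6.11 CPM. The highest cluster was epithelial-like, with 22 barcodes led by Ager, which all carried Icam1 (1435 CPM, 1259.8 to 1627.5), while Vwf had 0 UMIs there. At 1000 UMIs, Car4 was carried by 50.9% of barcodes with Icam1 and 28.5% of those without, and by 10.1% of barcodes with Vwf and 35.5% of those without. Vcam1 was carried by 8.10% (5.02 to 12.2) of barcodes with Vwf and 0.764% (0.408 to 1.30) of those without.

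In fat P2, where 7619 of the 7898 barcodes were fibroblast-like, Selp, Vwf and Lrg1 lay mostly outside the fibroblast-like clusters. Of the UMIs of Selp, Vwf and Lrg1, 90.9%, 84.6% and 83.5% lay in unnamed clusters that held 3.505% of the UMIs of the library. A cluster of 19 barcodes led by Fabp4, Aqp1 and Ptprb had Lrg1 at 248 CPM, Vwf at 149 CPM and Selp at 82.7 CPM. It also had the highest Ackr1 of the fat P2 clusters (116 CPM, from 14 UMIs, in 42.1% of barcodes). Nr2f2 stood at 99.3 CPM there, from 12 UMIs. Of the 188 Lrg1 UMIs of fat P2, that cluster of 19 barcodes held 30. A cluster of 83 barcodes led by genes that include the mammary genes Csn3 and Wfdc18 held 93 (214.5 CPM, in 45.8% of barcodes). Another 30 lay in a cluster of 44 barcodes with Epcam, Krt8 and Krt18 among its leading genes (72.4 CPM, in 27.3% of barcodes). Fibroblast-like barcodes had Lrg1 at 0.737 CPM, Vwf at 0.0951 CPM and Selp at 0.0238 CPM.

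Nr2f2, Vcam1 and Icam1 divided the fat P2 stroma. Ackr1 stood between 60.2 and 98.4 CPM in 9 fibroblast-like clusters (5247 barcodes) and between 3.31 and 27.1 CPM in the other 5 (2372 barcodes), a cut at 50 CPM chosen after the values were seen. In the 5 clusters low in Ackr1, Nr2f2 stood at 122 CPM, Vcam1 at 93.1 CPM and Icam1 at 163 CPM. In the 9 clusters high in Ackr1 the same genes stood at 26.9, 17.0 and 25.2 CPM. A cluster of 52 barcodes led by the immune genes Cd74, Ccl5 and S100a8, which should lack stromal RNA, held Pi16 at 2622 CPM, Ackr1 at 31.2 CPM, Nr2f2 at 31.2 CPM and Vcam1 at 22.3 CPM (median depth 2727 UMIs, against 5185 in fibroblast-like barcodes). Pi16 was far lower in some fibroblast-like clusters (200 CPM in the lowest), so the levels of the immune cluster are only an upper limit of background. Levels at or under them cannot be told apart from background, among them Ackr1 in the 5 low clusters and Nr2f2 and Vcam1 in at least 7 of the 9 others. Icam1 stood at 93.65 CPM in the immune cluster, above its level in all 9 clusters high in Ackr1 (at most 88.0 CPM).

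The low-Ackr1 clusters were led by different stromal genes. Nr2f2 was highest in a cluster of 103 barcodes led by Apod and Spp1 (209 CPM), 1 of 362 led by Fmo2 and F3, known from stroma that regulates adipogenesis (206 CPM), and 1 of 759 led by Igfbp2 (197 CPM). Vcam1 and Icam1 were highest in a cluster of 803 barcodes led by Nrep, Aoc3 and Col4a1 (160 and 221 CPM), where Nr2f2 was at 52.8 CPM. The Apod cluster, high in Nr2f2, had Vcam1 at 17.7 CPM and Icam1 at 41.4 CPM. High-Ackr1 clusters carried the adipose progenitor gene Pi16 at 3482.9 to 7628 CPM, and low-Ackr1 clusters at 200 to 1777 CPM. Cluster 6, at 60.2 CPM of Ackr1, had Nr2f2 at 80.6, Vcam1 at 45.8 and Icam1 at 88.0 CPM, the highest of the 9, and 389 of its 645 barcodes were among those with the highest doublet scores.

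Over the 14 fibroblast-like clusters, which share 1 library, Pearson's r of log2(CPM + 10) was -0.829 for Nr2f2 with Ackr1, -0.818 for Icam1 with Ackr1, -0.761 for Vcam1 with Ackr1 and 0.878 for Vcam1 with Icam1. In single barcodes thinned to 1000 UMIs, Ackr1 was carried by 2.27% (1.04 to 4.27) of the 396 fibroblast-like barcodes with Nr2f2 and by 5.97% of those without. It was carried by 2.14% (0.930 to 4.18) of the 373 with Icam1 and 5.96% of those without. Icam1 was carried by 10.1% (6.53 to 14.8) of the 227 with Vcam1 and 4.73% of those without.

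The Ackr1 counts of fat P2 cannot be told apart from reads of Cadm3. Both genes are transcribed from the minus strand, the annotated end of Cadm3 lies inside Ackr1, and the libraries count transcript ends. Cadm3 stood at 14.3 CPM (16 UMIs) in the labelled lung P1 library, 2.84 CPM (11 UMIs) in lung P2, 0 UMIs in the labelled fat P1 library and 158 CPM (6906 UMIs) in fat P2. In fat P2, Ackr1 had 0.373 (0.356 to 0.390) UMIs for each UMI of Cadm3, and this ratio lay between 0.257 and 0.429 in all 14 fibroblast-like clusters, while Ackr1 itself differed 29.7-fold and Cadm3 26.0-fold between the highest and the lowest of them. Pearson's r of Ackr1 with Cadm3 over these clusters was 0.991. At 1000 UMIs, Cadm3 was carried by 21.4% of fibroblast-like barcodes with Ackr1 and 14.2% of those without.

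In the labelled lung P1 library the ratio was 3.44 (1.94 to 6.43), above the fat P2 interval. That library also carried erythroid RNA, with the 7 erythroid markers summing to 5815 CPM against 268, 223 and 25.3 CPM in lung P2, labelled fat P1 and fat P2, and with Slc4a1 at 0 in the labelled lung P1 library. Ackr1 is known from red cells as well as from venules, and the part of erythroid RNA in its count was not tested. In the fat P2 cluster of 19 barcodes with endothelial genes the ratio was 0.667 (0.314 to 1.37), from 14 and 21 UMIs, an interval that holds the value of the whole library.

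**Figure D5:**
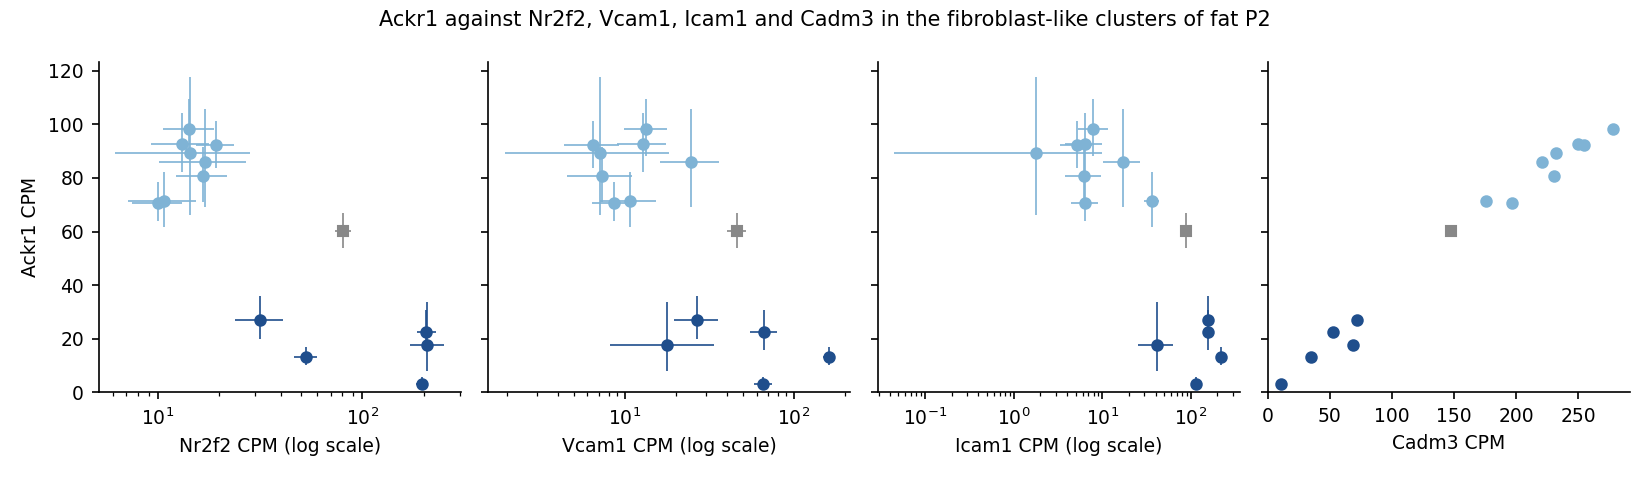
Ackr1 CPM (vertical axis) against Nr2f2, Vcam1 and Icam1 CPM (log scale) and against Cadm3 CPM in the 14 fibroblast-like clusters of fat P2, with exact Poisson 95% intervals in the first 3 panels. Light points are clusters at 50 CPM of Ackr1 or more, dark points those under it, and the grey square is cluster 6. Ackr1 is low where Nr2f2, Vcam1 and Icam1 are high, and lies on a near straight line with Cadm3.

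Signals from platelets and leukocytes were read beside the selectins and Vwf, which platelets also carry. The 8 platelet markers summed to 76.0 CPM in the labelled lung P1 library, 4.12 CPM in lung P2, 33.0 CPM in the labelled fat P1 library and 26.5 CPM in fat P2, with 2, 0, 1 and 1 of them at 10 CPM or more. Gp1bb was at 0 in the labelled lung P1 and labelled fat P1 libraries and in lung P2. The 7 neutrophil markers summed to 1.79, 4.12, 2.15 and 22.9 CPM in the same order. The part of platelet RNA in Selp was not tested. Lrg1 has a neighbour on its own strand, Sema6b, which ends 1083 bases before it and had 112, 1.03, 17.4 and 4.08 CPM in those libraries.

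Further genes of venous endothelium, taken from a list of 15, were more often higher in P1 than lower. The list holds Emcn and Plvap, which are also among the endothelial and capillary markers used here. They had the largest log2 ratios (5.04 and 5.56 in fat, 4.81 and 5.78 in lung). The gates sorted P1 as CD31+ and P2 as CD31-, so these counts do not separate venous from other endothelial genes. Of these, 13 were measured in fat (20 CPM in 1 library), of which P1 was at least 4-fold higher for 5 and lower for 1 (median log2 1.45, against 0.34 over all 8143 genes measured, of which 8.02% were higher and 6.85% lower). In lung 5 of 12 were higher and 0 lower (median 1.49, against -0.16 over 8376 genes with 5.23% higher and 7.39% lower). Plvap, which forms the diaphragms of fenestrae, stood at 2869 CPM in the labelled lung P1 library and 42.5 CPM in lung P2, and at 1430 CPM in the labelled fat P1 library and 20.6 CPM in fat P2. Slc6a2 stood at 0 UMIs in the labelled lung P1 library and 53.6 CPM in the labelled fat P1 library, while Nrp2, a receptor of veins and lymphatics, stood at 115 and 15.7 CPM. Between the P2 libraries, lung over fat, 1 of 9 was higher and 2 lower (median 0.17, against 0.20 over 7920 genes with 5.06% higher and 2.9% lower). With the P1 libraries exchanged, 7 of 12 were higher and 0 lower in fat (over all genes 6.32% higher and 5.91% lower), and 4 of 14 higher and 1 lower in lung (over all genes 5.37% and 6.81%). The shares over all genes given here for each comparison are also those beside which the lists that follow are read.

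Partners of Vwf and Selp in Weibel-Palade bodies gave no common direction in fat, where 3 of 11 measured genes were higher in P1 and 3 lower (median log2 0.97). The P-selectin partner Cd63 stood at 21.4 CPM in the labelled fat P1 library and 843 CPM in fat P2, and Plat, the tissue plasminogen activator, at 36.9 and 557 CPM. In lung 5 of 10 were higher in P1 and 0 lower (median 1.39), with endothelin, encoded by Edn1, at 148 CPM in the labelled lung P1 library and 9.02 CPM in lung P2. Between the P1 libraries, lung over fat as labelled, 2 of 11 were higher and 0 lower, against 3.51% higher and 3.66% lower over 7900 genes. Exchanged, 3 of 10 were higher and 1 lower in fat, and 3 of 10 higher and 1 lower in lung.

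Other genes of leukocyte adhesion and passage were higher in P1 for 6 of 15 in fat (0 lower, median log2 1.25) and for 8 of 17 in lung (2 lower, median 1.61). Examples are Icam2 at 1190.0 CPM in the labelled fat P1 library and 0.482 CPM in fat P2, and Esam at 982 CPM in the labelled lung P1 library and 38.9 CPM in lung P2. Alcam, by contrast, stood at 15.2 CPM in the labelled lung P1 library and 347 CPM in lung P2. Glycam1, which encodes a selectin ligand, stood at 140 CPM in the labelled lung P1 library and had 0 UMIs in lung P2 and in the labelled fat P1 library. The cells it came from were not tested. Between the P2 libraries, lung over fat, 6 of 15 were higher and 1 lower (median 1.33). With the P1 libraries exchanged, P1 was higher for 7 of 16 in fat (0 lower) and 5 of 14 in lung (1 lower). This list includes the gate gene Pecam1 (P1 over P2 as labelled, log2 7.16 in fat and 3.65 in lung). It also includes Cdh5 and Esam, which are among the endothelial markers used here. The counts of P1 over P2 therefore rest in part on the sort itself.

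Inflammatory genes that NF-kB induces were read beside Sele, Vcam1 and Icam1. In fat 1 of 14 was at least 4-fold higher in P1 and 4 lower (median log2 -0.30, against 8.02% of all genes higher and 6.85% lower), so the count of higher genes was near that of all genes. The chemokine gene Cxcl1 had 0 UMIs in the labelled fat P1 library and 168 CPM in fat P2. In lung 2 of 12 were higher in P1 and 0 lower (median 0.82, against 5.23% of all genes higher and 7.39% lower), with Cxcl1 at 58.1 CPM in the labelled lung P1 library and 1.03 CPM in lung P2. Genes of the interferon gamma response were higher in P1 for 2 of 9 in fat (1 lower) and 3 of 10 in lung (0 lower), with Cxcl9 at 128 CPM in the labelled lung P1 library and 0 UMIs in lung P2. Exchanging the P1 libraries changed the NF-kB counts to 0 of 15 higher and 4 lower in fat and 1 of 10 higher and 1 lower in lung, and Cxcl1 was then no longer at least 4-fold apart in either tissue. The interferon counts were then 2 of 10 higher and 0 lower in fat and 3 of 8 higher and 0 lower in lung, and Cxcl9, with 0.154 CPM in the labelled fat P1 library, was not among those of lung. Of 8 leukocyte partners of these receptors, 3 were measured in fat and none was called. The alpha-4 integrin gene Itga4 stood at 22.7 CPM in the labelled fat P1 library and 0.642 CPM in fat P2, its beta-7 partner Itgb7 at 6.30 and 54.9 CPM, and the hyaluronan receptor gene Cd44 at 37.6 and 40.8 CPM. In lung Cd44 stood at 9.83 CPM in the labelled lung P1 library and 93.8 CPM in lung P2.

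TGF-beta genes with which Lrg1 acts were higher in P1 for 5 of 10 in fat (1 lower, median log2 2.29) and 3 of 10 in lung (0 lower, median -0.13). Exchanged, the counts were 3 of 10 in fat and 4 of 10 in lung, with 0 lower in both. The receptor genes Eng and Acvrl1 stood at 1294 and 1683 CPM in the labelled fat P1 library and 46.6 and 60.3 CPM in fat P2. Eng encodes CD105, for which P1 was gated as high and P2 as low. It is counted among the higher genes in both tissues, so the counts of P1 over P2 rest in part on the sort. Between the P1 libraries, lung over fat as labelled, 0 of these 10 genes were higher and 3 lower, against 3.51% and 3.66% of all genes (median -0.42, against -0.26). Acvrl1 stood at 291 CPM in the labelled lung P1 library and 1683 CPM in the labelled fat P1 library, and the inhibitor Smad6 at 20.6 and 536 CPM.

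Genes with the most similar pattern were taken from Pearson's r of log2(CPM + 10) over the 55 clusters of at least 20 barcodes, pooled over the 4 libraries, among 9388 genes. The most similar to Vwf was Mmrn2 (0.957), an endothelial matrix gene, followed by Tm6sf1 and Grrp1 (0.943 each). Nearest to Nr2f2 were Bgn (0.877), Ppp1r14a (0.871) and Ednra (0.861), all known from mural or stromal cells. Vcam1 was nearest to the matrix genes Mgp (0.852), Ltbp4 (0.839) and Bgn (0.805), and Icam1 to the basement membrane genes Col4a2 (0.832) and Col4a1 (0.769) and to Slc44a2 (0.762). For Ackr1 they were Efhd1 (0.943), Ebf3 (0.912) and Gda (0.895), for Lrg1 Adgrg1 (0.931), Mall and Itgb4 (0.923 each), and for Selp Gkn3 (0.959), C1qtnf9 (0.95) and Cytl1 (0.944). Sele had lower values, with Esr2 at 0.787, Bmx at 0.717 and Mbd4 at 0.687. These values depend on which clusters each library contributes, and 12 of the 55 come from the labelled lung P1 library, whose barcodes are not shown to be single cells.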

How the data were processed

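The deposited values were counts, UMIs per gene and barcode with no normalization, from 10x 3' v3.1 libraries. Reads had been processed with Cell Ranger 3.1.0 on mm10, per the submitters' processing notes. Libraries had medians of 1561 (lung P1), 2150 (lung P2), 2964 (fat P1) and 5151.5 (fat P2) UMIs per kept barcode. Summed UMIs were scaled to CPM. Intervals cover counting error only, and floors use 3 counts.

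The 8 genes and all gene lists were chosen with earlier results of these data known. Other named genes were the up to 4 of each list with the largest log2 ratio, the 3 most similar to each gene, and label checks. Cluster leading genes, Slc6a2, Gja5, Car4, Cadm3, Pi16 and Sema6b were named after their values were seen. List genes counted as measured at 20 CPM in 1 library.

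Barcodes were clustered within each library (scanpy 1.11.5, igraph 0.11.9) with 2000 variable genes, leaving out 23 genes (the 8 and the wider venous list), 30 components, 15 neighbours and Leiden resolution 1. A cluster was named "-like" by the marker list with the most genes at 100 CPM or more, with at least 3, and a cluster whose leading genes went against the name stayed unnamed. Scrublet's own threshold marked 27 barcodes in lung P1, 2 in lung P2, 7 in fat P1 and 2 in fat P2. For all libraries the highest scores were marked instead, at 0.8% per 1000 barcodes, which gave 7, 33, 59 and 570, and were kept in the reported values. Alternatives were TMM scaling (edgeR 4.0.16, R 4.3.3), all barcodes, doublets removed, 1 CPM added, a 20 CPM minimum, means over barcodes, named cells only, exchanged P1 libraries and other thinning and resolution. The 4-fold call was tested on simulated library sums with known changes, and thinning was checked to leave 1000 UMIs per barcode. Other tools were Python 3.11.15, numpy 2.4.6, scipy 1.17.1, pandas 2.3.3 and matplotlib 3.10.9. Positions came from GENCODE vM21 and promoters from RefSeq.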

Additional observations from a re-analysis of the deposited data

Results flagged for a closer look

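Ackr1 stood on opposite sides in the comparisons of P1 over P2, with a log2 ratio of -2.77 in fat (1 UMI in the labelled fat P1 library and 2574 UMIs in fat P2) and 2.49 in lung (55 UMIs in the labelled lung P1 library and 2 in lung P2). It is given for a closer look because both tissues differ in direction, and that difference was not tested. With the P1 libraries exchanged the log2 ratio was -0.22 in fat and -0.05 in lung. The fat P2 count cannot be told apart from reads of the overlapping gene Cadm3.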

How the results depend on the processing

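Exchanging the P1 libraries changed most calls. In fat, 3 genes (Selp, Lrg1, Vwf) were then higher and 0 lower, in lung 0 were higher and 2 (Nr2f2, Vcam1) lower, and in lung P1 over fat P1 0 were higher and 2 (Selp, Lrg1) lower. Over all genes, the exchange gave 427 higher and 405 lower of 4282 in fat, and 432 and 500 of 4853 in lung. Between the P1 libraries it gave 263 higher and 243 lower of 4605. The log2 ratio of Selp became -0.057 in lung and -2.39 between the P1 libraries, and that of Lrg1 -4.54 there. With 1 CPM added, Icam1 joined Vwf as higher in fat (2) and Vcam1 joined Nr2f2 as lower in lung (2). All genes then gave 683 higher and 534 lower of 4727 in fat, and 486 and 679 of 4791 in lung. With named cells only, Nr2f2 and Ackr1 were lower in fat (2), and 4 genes (Nr2f2, Ackr1, Selp, Lrg1) were higher in lung P1 over fat P1. Of all genes, 598 were then higher and 506 lower of 4733 in fat, and 284 and 304 of 4601 between the P1 libraries. Without clusters 9 and 10 of the labelled fat P1 library and the endothelial-like cluster of lung P2, chosen after seeing the data, 4 genes (Nr2f2, Selp, Lrg1, Vcam1) were higher in lung P1 over fat P1. There 274 of all 4628 genes were higher and 276 lower. The causes were not tested. The other 59 counts stayed within 1.5 times. TMM factors shifted ratios of CPM, before 10 CPM were added, by a log2 of -0.38 in fat, 0.06 in lung, 0.08 between P1 and -0.36 between P2 libraries. No paired analysis was possible because each group had 1 library, so no library could be left out either. Depth limits Sele and Selp, which had 12 UMIs or fewer outside the labelled lung P1 library.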
